A study of Mus musculus with 38 samples.

Results

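The proteasome is the large protease that degrades proteins marked with ubiquitin, and the genes described here encode its core and its cap. They are the rows of the expression table whose symbols begin with Psma, Psmb, Psmc or Psmd and a number, without the inducible subunits Psmb8, Psmb9 and Psmb10 and without pseudogenes. 37 of the 21705 genes in the table met this rule, which used names and no measured value. They comprise 8 genes of the alpha ring, 8 of the beta ring, 6 of the ATPase ring, 11 of the non-ATPase cap, 3 cap assembly chaperones with Psmd names (Psmd5, Psmd9 and Psmd10) and Psmc3ip, a meiotic recombination factor that matches only by name.

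The study sequenced messenger RNA of mouse kidney tumours driven by a doxycycline (Dox)-inducible MYC transgene, of a cell line from each tumour model, and of normal kidney. The 38 libraries fall into 10 groups. MYC-2983 (genotype MYC+), VM-3055 (Vhl-/-; MYC +) and VIM-3039 cells (Vhl-/-; MYC +; Ink-/-/Arf-/-) were each maintained on Dox or withdrawn from it (n = 4 per group). MYC, VM and VIM tumours of the same genotypes, kept on Dox, gave 3 libraries each, and normal kidneys of wild type mice on vehicle gave 5. The kidney titles start with B6 (replicates 1 and 3) or KT (replicates 2, 4 and 5), prefixes that the labels do not explain. The transgene and the Vhl-deleting Cre were driven by the kidney-specific cadherin promoter, whereas the Ink4a/Arf deletion was germline. Each cell line came from 1 tumour and was collected a day after plating with or without Dox. MYC tumours replicates 2 and 3 carry the animal number of the MYC-2983 line, so they were averaged and the MYC tumours entered tests as 2 animals. The ages of the mice are not given in the labels, and nothing says that the 4 libraries of a cell group came from separate cultures, so their p-values measure the spread between these samples, which may be technical.

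The core particle is a barrel of stacked rings. The outer alpha rings gate the channel and dock the cap, and the inner beta rings carry the proteolytic sites: Psmb6 cuts after acidic residues, Psmb7 after basic residues and Psmb5 after hydrophobic residues. The cap holds a ring of ATPases (Psmc genes) that unfold substrates, and non-ATPase subunits (Psmd genes) that bind ubiquitin, remove it and act as scaffolds. Dedicated chaperones (Psmg genes and Pomp for the core) assemble the particle. In immune settings Psmb9, Psmb10 and Psmb8 replace Psmb6, Psmb7 and Psmb5. MYC is a transcription factor best known for raising genes of growth and protein synthesis.

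The promoters of 6 genes on which the results turn are shown from 120 bases upstream of the RefSeq start site up to that site (GRCm38.p6, transcribed strand, 5′ to 3′). They are Psma5 and Psmb3, the ring subunits with the largest Dox differences, Psmc1 and Psmd12 of the ATPase ring and cap, Psmd8, which moved the other way, and the assembly chaperone Psmg1. Capitals mark CCGGAAG or its reverse complement, the core of the sites that ETS-family factors bind.
Psma5, chr3:108256806-108256925 (+): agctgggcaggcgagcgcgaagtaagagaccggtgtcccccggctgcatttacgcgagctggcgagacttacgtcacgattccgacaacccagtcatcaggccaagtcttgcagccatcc
Psmb3, chr11:97703314-97703433 (+): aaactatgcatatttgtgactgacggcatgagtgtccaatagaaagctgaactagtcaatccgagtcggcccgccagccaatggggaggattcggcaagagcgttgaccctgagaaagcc
Psmc1, chr12:100110082-100110201 (+): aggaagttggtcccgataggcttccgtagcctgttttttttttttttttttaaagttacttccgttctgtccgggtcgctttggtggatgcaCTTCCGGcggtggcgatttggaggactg
Psmd8, chr7:29180674-29180793 (-): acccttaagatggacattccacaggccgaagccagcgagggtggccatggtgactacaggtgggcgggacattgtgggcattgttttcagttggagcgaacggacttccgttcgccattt
Psmd12, chr11:107479408-107479527 (+): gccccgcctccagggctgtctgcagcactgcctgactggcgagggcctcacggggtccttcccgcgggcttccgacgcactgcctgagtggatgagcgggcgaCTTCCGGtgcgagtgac
Psmg1, chr16:95990961-95991080 (-): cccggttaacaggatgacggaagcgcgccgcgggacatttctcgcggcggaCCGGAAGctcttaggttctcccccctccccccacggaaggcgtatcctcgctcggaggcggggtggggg

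RefSeq promoters (250 bases before to 50 after the start) were matched for 25 of the 31 ring and cap subunits with a mean of at least 50 units over all libraries and for 4 of the 5 core assembly chaperones. Searched on both strands, CCGGAAG was found in 9 of the 14 ATPase and cap promoters: Psmc1, Psmc2, Psmc6, Psmd2, Psmd4, Psmd6, Psmd11, Psmd12 and Psmd13. It was found in 0 of the 11 alpha and beta ring promoters, in 3 of the 4 assembly chaperones (Psmg1, Psmg3 and Pomp) and in 9.12% of the 27025 promoters in the table. The E-box CACGTG, the sequence that MYC and its partner bind, was found in 1 of the 25 subunit promoters (Psma4), against 7.24% of all promoters. The letters GGGCGG were in 15 of the 25 (35.9% of all), CCAAT in 10 (37.9%), and TGANNNNGC, the core of the antioxidant response element, in 13 (41.4%). Matches of different motifs may share bases, and a match describes the letters of this window only. The motifs were chosen with earlier results of these data known.

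Library sizes were estimated at 8.22 to 36.6 M reads, and values are given in the deposited units, in which the upper quartile of the genes above 0 is about 1000 in each library. Vhl read 433 to 543 units in MYC-2983 cells and 8.3 to 39 in VM-3055 and VIM-3039 cells, and Cdkn2a read 25 to 41 units in VIM-3039 cells against 3056 to 5701 in the other lines. In tissue Vhl read 40.2 to 79.9 units in VM tumours, 219 to 312 in VIM tumours and 612 to 772 in kidney. Cdkn2a read 3392 to 4347 units in VM tumours, 30.1 to 95.5 in VIM tumours and 108, 2872 and 59.3 in MYC tumours replicates 1 to 3, so the MYC tumour libraries that share an animal number and were averaged differed widely. Mouse Myc read 651 to 699 units with Dox and 1764 to 1868 without in MYC-2983 cells, and was likewise below in VM-3055 and VIM-3039 cells with Dox; the MYC transgene has no row of its own in the table. Summed proximal tubule markers (Lrp2, Slc34a1 and 4 others) were 199797 to 231790 units in kidney and 1523 to 10212 in tumours. Summed renal epithelial markers (Cdh16, Pax8, Epcam, Krt8 and Krt18) were 5607 to 18168 units in cells and 9322 to 22756 in tumours, and summed leukocyte markers 238 to 944 in cells.

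Renal epithelial, fibroblast and leukocyte marker sums were lower with Dox in every line. Proximal tubule and endothelial sums overlapped with and without Dox in VM-3055 and VIM-3039 cells, and distal nephron sums in VIM-3039 cells. The proximal tubule sums were 3898 to 5321 units with and 4980 to 7763 without Dox in VM-3055 cells. In VIM-3039 cells they were 3218 to 3720 and 3274 to 3995. Renal epithelial sums were 11469 to 12973 units with and 17268 to 18168 without Dox in MYC-2983 cells, 5607 to 5736 and 13019 to 13465 in VM-3055 cells and 5738 to 5834 and 10130 to 10824 in VIM-3039 cells; 4, 3 and 4 of the 5 genes were called lower and 1, 0 and 1 higher. Fibroblast sums were 287 to 299.6 with and 965 to 1136 without, 87.4 to 111 and 629.6 to 710.1, and 25.0 to 35.4 and 139.8 to 180.0 in the same lines. Of the 6, 5 and 3 fibroblast genes tested, 5, 3 and 3 were lower and 1, 0 and 0 higher. Leukocyte sums were 238 to 275 with and 472 to 503 without, 346 to 398 and 895 to 944, and 279.5 to 303 and 367 to 431. Of the 5, 3 and 5 leukocyte genes tested, 4, 2 and 2 were lower and 0 higher. Among all genes tested 44%, 47.7% and 44.2% were lower and 31.5%, 26.1% and 31.1% higher. The part of the marker differences in the Dox differences of the proteasome genes was not tested.

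With Dox the 37 genes together made up a larger share of the library in every line. The share was 0.804% ± 0.0041 of all units with Dox and 0.647% ± 0.0036 without in MYC-2983 cells (SD, n = 4). In VM-3055 cells it was 0.844% ± 0.0171 with Dox and 0.702% ± 0.0176 without, and in VIM-3039 cells 0.782% ± 0.0108 and 0.631% ± 0.0076. The groups with and without Dox did not overlap in any line. In tissue the share was 0.370% ± 0.0370 in normal kidney (n = 5), 0.504% ± 0.0295 in MYC tumours, 0.605% ± 0.0225 in VM tumours and 0.639% ± 0.0876 in VIM tumours (n = 3 each). Within kidney it was 0.415 and 0.401% in the libraries with B6 titles and 0.353, 0.359 and 0.324% in those with KT titles. By this share every tumour library lay above every kidney library. In deposited units every tumour group overlapped kidney. The 37 genes summed to 58168 to 84872 units in kidney and 67972 to 74136 in MYC tumours. The kidney sums were 84872 and 83406 with B6 titles and 68859, 70113 and 58168 with KT titles. They were 82819 to 93165 in VM and 79785 to 132065 in VIM tumours. The 10 most abundant genes took 3.69 to 4.48% of the units in the cell groups with Dox and 4.20 to 6.76% in those without (group means). They took 11.4% in kidney and 5.40, 5.72 and 6.62% in MYC, VM and VIM tumours. The part of these differences in the members' shares was not tested.

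**Figure D1:**
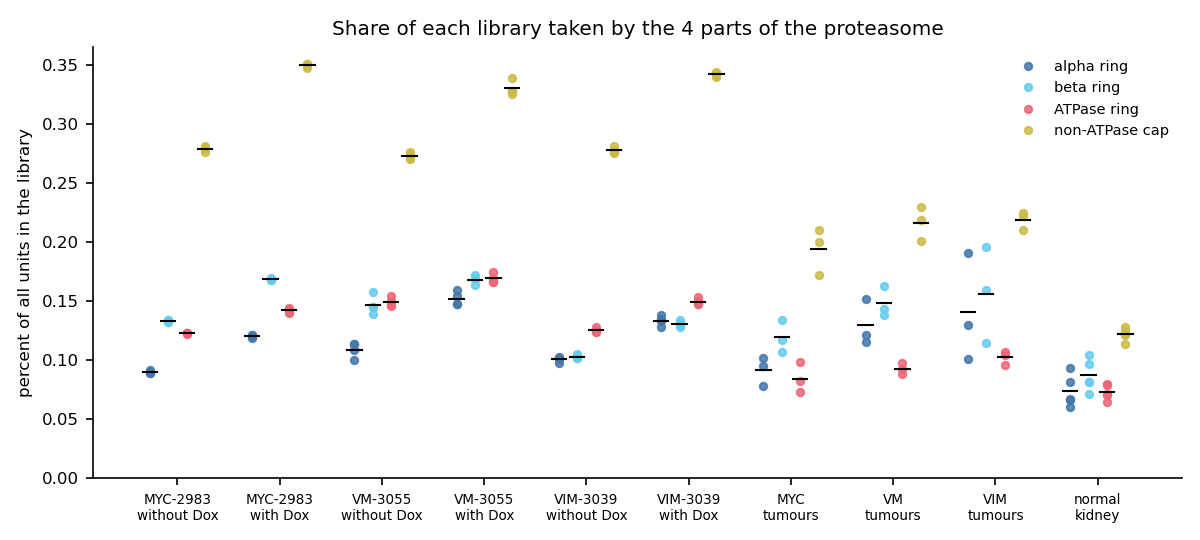
Share of each library taken by the alpha ring, beta ring, ATPase ring and non-ATPase cap genes (colours), in percent of all deposited units (y axis), for the 10 groups (x axis); points are libraries and horizontal bars are group means. The cap has the highest mean in every group, 0.350% with and 0.280% without Dox in MYC-2983 cells and 0.122% in kidney.

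Most subunit genes were modestly higher with Dox in all 3 lines, each by less than 1 on the log2 scale. In MYC-2983 cells 29 of the 36 members tested were called higher and 4 lower, against 31.5% and 44% of all 15104 genes tested (limma, adjusted p under 0.05). VM-3055 cells gave 24 higher and 5 lower of 36 (26.1% and 47.7% of all genes), and VIM-3039 cells 29 higher and 2 lower of 35 (31.1% and 44.2%). 20 members were called higher in each of the 3 lines and 11 in 2 of them. Psmd8 and Psmd10 were called lower in each line. The median member difference was 0.17, 0.21 and 0.22 on the log2(value + 1) scale (all differences below are on it), where the median of all genes tested was -0.13, -0.26 and -0.15. No member passed a difference of 1, which 4.49%, 5.92% and 7.67% of all genes did in the higher direction.

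The calls were also made after another centring. After TMM scaling, which put the median of all genes at -0.02, -0.06 and -0.02, the members' medians were 0.29, 0.42 and 0.37, and 31, 31 and 33 were called higher against 3, 2 and 1 lower, where 37.6%, 35% and 37.7% of all genes were higher and 37.5%, 38% and 37% lower. Psma8, the alpha subunit of germ cells, was 0 in all 24 cell libraries, and Psmb11, the beta subunit of the thymus, reached at most 3.26 units there, near the 1.16 to 3.34 units that 3 reads were worth. Where a gene has near-identical copies the counting could have split its reads, and the strand setting of the counting is not given, so Psma5, Psmb7, Psmc3 and Psmc3ip, which overlap a gene on the opposite strand, share this uncertainty.

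**Figure D2:**
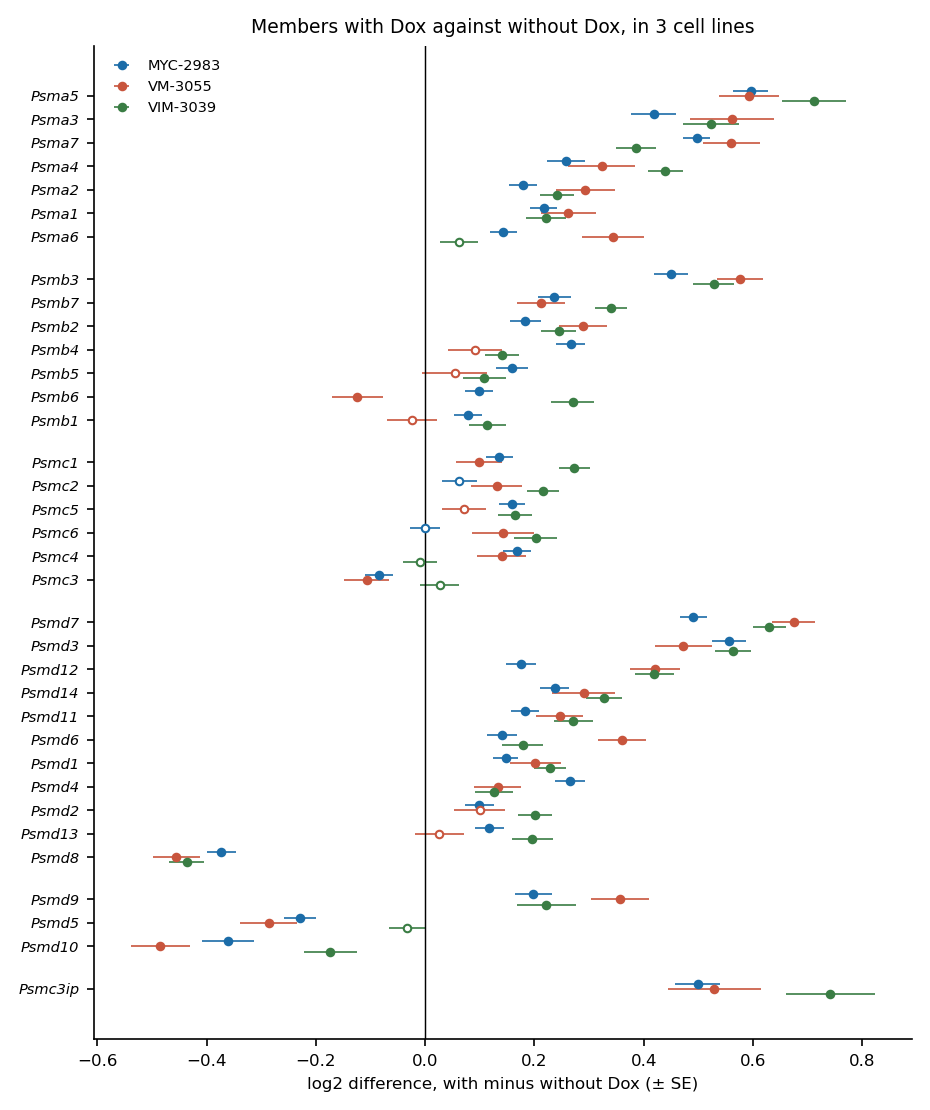
Difference with minus without Dox for each member on the log2(value + 1) scale (x axis) in the 3 lines (colours); filled points were called (limma, adjusted p under 0.05), open points were not, lines are ± SE, and Psma8 and Psmb11 are not drawn. Most points lie between 0 and 0.74, and Psmd8 and Psmd10 lie below 0 in every line.

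In the alpha ring 7 of 7, 7 of 7 and 6 of 7 expressed subunits were called higher in the MYC-2983, VM-3055 and VIM-3039 lines, with medians of 0.26, 0.34 and 0.39. Psma5, a structural alpha subunit, differed most. It read 870.4, 893, 861 and 907 units in the MYC-2983 libraries with Dox and 598, 572, 586 and 579 without, a difference of 0.60 (SE 0.032, adjusted p = 5.97e-12). In VM-3055 cells the values were 937, 895, 960.1 and 948 with Dox and 594, 672, 639 and 577 without, a difference of 0.59 (SE 0.055, adjusted p = 2.07e-08). In VIM-3039 cells they were 664, 611, 627 and 561 and 343, 382, 388 and 387, a difference of 0.71 (SE 0.058, adjusted p = 3.06e-10). The libraries with and without Dox were thus separate in each line, although Psma5 is among the less abundant subunits per length.

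Psma6, also a structural subunit of the ring, differed least. It read 3333, 3260, 3211 and 3354 units with Dox and 3045, 2906, 2959 and 3003 without in MYC-2983 cells (0.14 (SE 0.025, adjusted p = 5.21e-05)). VM-3055 cells had 3443, 3366, 3688 and 3763 with Dox and 2716, 3069, 2917 and 2549 without (0.34 (SE 0.056, adjusted p = 2.41e-05)). VIM-3039 cells had 3117, 2918, 2977 and 2788 and 2876, 2834, 2874 and 2717, values that overlapped (0.06 (SE 0.035, adjusted p = 0.119)). Of the others, Psma3 differed by 0.42, 0.56 and 0.52 and Psma7 by 0.50, 0.56 and 0.39 in the MYC-2983, VM-3055 and VIM-3039 lines, all called higher, as were Psma1, Psma2 and Psma4, which lay between 0.18 and 0.44.

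In the beta ring 7 of 8, 3 of 8 and 7 of 7 subunits tested were called higher, with medians of 0.17, 0.07 and 0.24. Psmb3, a non-catalytic subunit, was the highest of the ring. It read 2216, 2194, 2245 and 2263 units with Dox and 1739, 1581, 1578 and 1633 without in MYC-2983 cells (0.45 (SE 0.031, adjusted p = 1.79e-10)). The values were 1456, 1414, 1460 and 1456 against 953, 962, 1000 and 966 in VM-3055 cells (0.58 (SE 0.042, adjusted p = 7.64e-10)) and 1549, 1445, 1490 and 1456 against 1077, 987, 1028 and 1025 in VIM-3039 cells (0.53 (SE 0.038, adjusted p = 2.72e-11)). No library with Dox reached down to those without. Psmb1, another non-catalytic subunit, was the lowest of the ring. Its values were 3093, 2943, 2927 and 3064 with Dox and 2795, 2859, 2838 and 2896 without in MYC-2983 cells (0.08 (SE 0.026, adjusted p = 0.0114)), a small but separate shift. In VM-3055 cells 4108, 3984, 4081 and 4264 and 3998, 4235, 4496 and 3999 overlapped, with a difference of -0.02 (SE 0.046, adjusted p = 0.653) that became 0.19 after TMM scaling, 0.021 after quantile normalization and 0.071 with voom. In VIM-3039 cells 2908, 2918, 2948 and 2714 and 2592, 2715, 2717 and 2588 overlapped too (0.11 (SE 0.034, adjusted p = 0.00439)).

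The 3 proteolytic subunits received different calls. Psmb7, the trypsin-like subunit, was higher with Dox in each line and its groups did not overlap. It read 3666, 3757, 3599 and 3942 units with Dox against 3113, 3106, 3251 and 3223 in MYC-2983 cells (0.24 (SE 0.03, adjusted p = 7.93e-07)). In VM-3055 cells it read 3667, 3622, 3756 and 3847 against 3305, 3386, 3067 and 3108 (0.21 (SE 0.044, adjusted p = 0.000317)), and in VIM-3039 cells 3238, 3316, 3144 and 3234 against 2534, 2530, 2586 and 2561 (0.34 (SE 0.03, adjusted p = 8.29e-10)). Psmb5, the chymotrypsin-like subunit and the main target of proteasome inhibitors, moved little. Its values were 2290, 2244, 2255 and 2419 with Dox and 2018, 2095, 2012 and 2116 without in MYC-2983 cells (0.16 (SE 0.029, adjusted p = 8.1e-05)). In VM-3055 cells they were 2703, 2609, 2272 and 2556 and 2325, 2277, 2715 and 2454 (0.05 (SE 0.06, adjusted p = 0.43)), and in VIM-3039 cells 1739, 1644, 1636 and 1545 and 1560, 1437, 1519 and 1570 (0.11 (SE 0.04, adjusted p = 0.0174)). The groups overlapped in the last 2 lines.

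Psmb6, the caspase-like subunit, was called in opposite directions. It read 3845, 3962, 4014 and 4080 units with Dox and 3674, 3645, 3712 and 3811 without in MYC-2983 cells (0.10 (SE 0.026, adjusted p = 0.0021)). VM-3055 cells had 2557, 2421, 2362 and 2489 with Dox and 2575, 2655, 2895 and 2592 without (-0.12 (SE 0.047, adjusted p = 0.0234)), so every library with Dox was below every library without, but TMM scaling turned the difference to 0.089. VIM-3039 cells had 2507, 2494, 2297 and 2323 and 2059, 1846, 2045 and 2029 (0.27 (SE 0.04, adjusted p = 2.55e-06)).

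**Figure D3:**
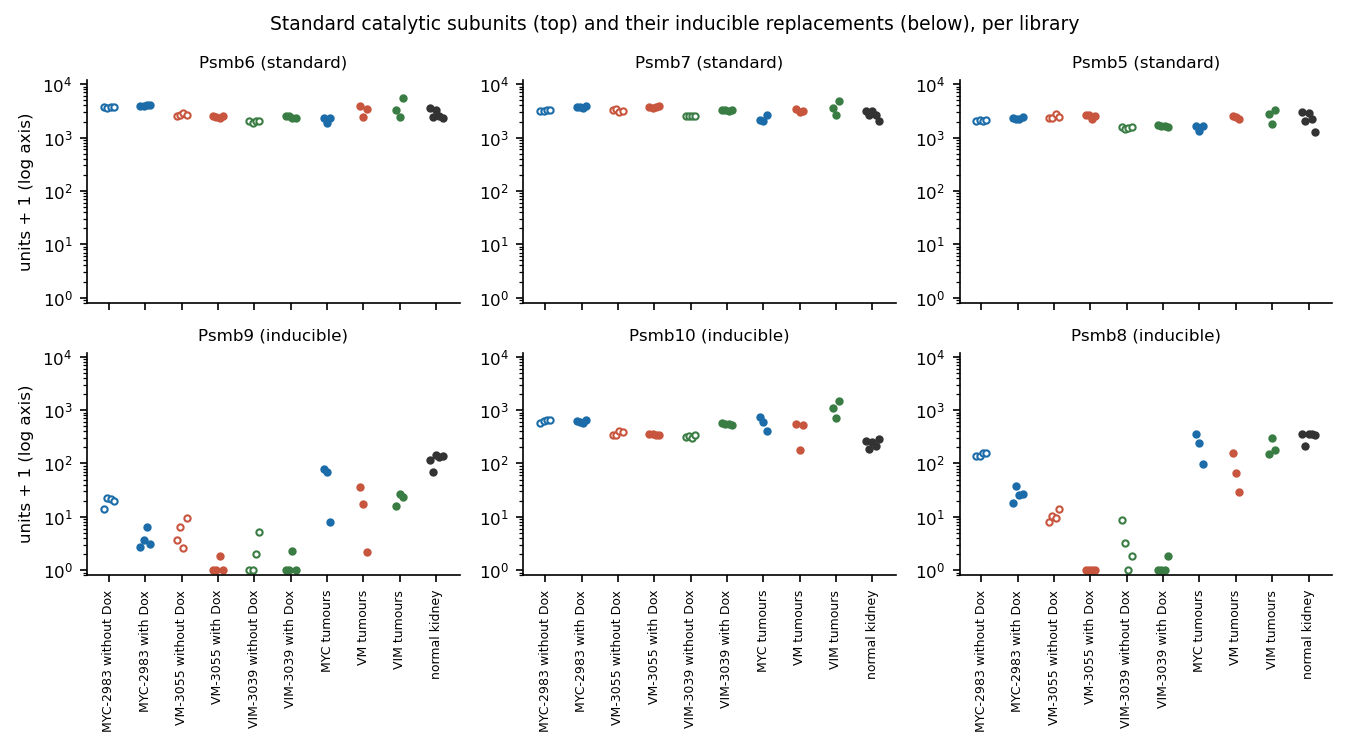
Level of the 3 standard proteolytic subunits (Psmb5, Psmb6, Psmb7) and of the inducible subunits that replace them (Psmb8, Psmb9, Psmb10) in every library, in deposited units plus 1 on a log axis (y axis), by group (x axis); open circles are cell libraries without Dox. The standard subunits lie between 1273 and 5458 units in all libraries, whereas Psmb8 is at 0 in VM-3055 cells with Dox and at 209 to 362 units in kidney.

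The ATPase ring had the smallest medians in MYC-2983 and VIM-3039 cells, 0.10 and 0.18, with 0.11 in VM-3055 cells. 3 of 6, 4 of 6 and 4 of 6 subunits were called higher. Psmc1, the member with the highest mean difference, read 3561, 3594, 3547 and 3727 units with Dox and 3255, 3266, 3294 and 3317 without in MYC-2983 cells (0.14 (SE 0.024, adjusted p = 6.38e-05)). In VM-3055 cells 3247, 3288, 3422 and 3329 and 3003, 3271, 3071 and 3062 overlapped (0.10 (SE 0.042, adjusted p = 0.0411)). VIM-3039 cells gave 3453, 3459, 3356 and 3454 and 2805, 2822, 2866 and 2861, which were separate (0.27 (SE 0.029, adjusted p = 1.86e-08)). Psmc3, the lowest, was 3084, 3046, 2999 and 3139 with Dox and 3191, 3196, 3304 and 3322 without in MYC-2983 cells (-0.09 (SE 0.025, adjusted p = 0.00569); 0.029 after TMM scaling and 0.049 with voom). In VM-3055 cells it was 3282, 3149, 3111 and 3240 and 3292, 3482, 3563 and 3433 (-0.11 (SE 0.041, adjusted p = 0.0276); 0.11 after TMM scaling), and in VIM-3039 cells 3599, 3486, 3224 and 3264 and 3245, 3279, 3385 and 3404 (0.03 (SE 0.036, adjusted p = 0.51)). Its lower call therefore depends on the scaling.

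In the non-ATPase cap 10, 8 and 10 of 11 subunits were called higher and 1 lower in each line, with medians of 0.18, 0.25 and 0.23. Psmd7, the partner of the deubiquitinase Psmd14, was the highest. It read 5084, 5214, 5219 and 5332 units with Dox and 3669, 3724, 3689 and 3748 without in MYC-2983 cells (0.49 (SE 0.024, adjusted p = 1.22e-12)). VM-3055 cells had 3696, 3644, 3552 and 3638 and 2253, 2343, 2273 and 2232 (0.67 (SE 0.039, adjusted p = 3.16e-11)), and VIM-3039 cells 5086, 5128, 5054 and 5073 and 3273, 3153, 3353 and 3369 (0.63 (SE 0.03, adjusted p = 2.54e-14)). Psmd3, a scaffold subunit of the lid, differed by 0.56, 0.47 and 0.56 and Psmd12, another, by 0.18, 0.42 and 0.42. The deubiquitinase Psmd14 itself differed by 0.24, 0.29 and 0.33 and the ubiquitin receptor Psmd4 by 0.26, 0.13 and 0.13, all called higher.

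Psmd8, also a lid subunit, was the single cap subunit called lower, and it was so in each line. It read 4024, 3903, 3872 and 4030 units with Dox and 5069, 4942, 5230 and 5264 without in MYC-2983 cells (-0.37 (SE 0.027, adjusted p = 3.65e-10)). VM-3055 cells gave 4216, 4186, 4127 and 4319 and 5809, 5733, 6078 and 5495 (-0.46 (SE 0.043, adjusted p = 2.32e-08)), and VIM-3039 cells 6166, 6082, 6236 and 5823 and 8213, 7914, 8241 and 8529 (-0.44 (SE 0.032, adjusted p = 4.83e-11)). Every library with Dox was below every library without. Of the cap assembly chaperones, Psmd9 was higher (0.20, 0.36 and 0.22), Psmd10 (gankyrin) was lower (-0.36, -0.48 and -0.17), and Psmd5 was lower in MYC-2983 and VM-3055 cells (-0.23 and -0.29) with -0.03 (SE 0.034, adjusted p = 0.394) in VIM-3039 cells. Psmc3ip was higher in each line, by 0.50, 0.53 and 0.74.

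Whether the lines responded differently was tested directly, as the interaction of line and Dox against a minimum of a 1.2-fold difference (limma treat, all 24 cell libraries). 0 of 36 members were called in each of the 3 contrasts, where 17%, 16.3% and 9.43% of all genes were. At an unadjusted p under 0.05 the counts were 0, 0 and 1, and voom called 0 in each. The fitted differences of the members ranged from -0.22 to 0.52 for VM-3055 against MYC-2983 cells and from -0.18 to 0.85 for VIM-3039 against MYC-2983 cells. They ranged from -0.28 to 0.39 for VIM-3039 against VM-3055 cells. The upper ends of 0.52 and 0.85 belong to Psmb11, which read at most 3.26 units in cells. The pseudocount sets these ends, and no difference is read from them. With no minimum size 8, 12 and 12 members were called. The share of all genes called that way is not given here, so these counts are not read as a result about the members. The lines were not shown to respond alike.

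The other genes of the pathway are described by role. The 5 core assembly chaperones were all called higher with Dox in each line: Psmg1 by 0.93, 1.2 and 1.02, Psmg2 by 0.75, 0.78 and 0.90, Psmg3 by 0.90, 1.28 and 1.24, Psmg4 by 0.75, 0.71 and 0.92 and Pomp by 0.22, 0.37 and 0.52. Psmg1 read 802, 786, 780.1 and 784 units with Dox and 350.1, 357, 357 and 312 without in VM-3055 cells. Pomp, which joins the beta subunits during assembly, read 2587, 2376, 2426 and 2561 and 1887, 1988, 2010 and 1831 there. Of the 11 ubiquitin factors that bind the cap, 8, 9 and 9 were higher and 2 lower in each line, where 31.5%, 26.1% and 31.1% of all genes were higher and 44%, 47.7% and 44.2% lower. The deubiquitinase Uchl5 rose by 0.91, 1.17 and 1.24 and its anchor Adrm1 by 0.15, 0.34 and 0.34, while Shfm1 fell by 0.15, 0.19 and 0.17.

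Of the 5 activators and inhibitors, Psme1 and Psme2, the interferon-inducible activator that caps the core in place of the ATPases, were lower in each line, with differences of -0.46, -0.98 and -0.75 and of -0.59, -1.02 and -0.85. The nuclear activator Psme3 was higher, by 0.60, 0.68 and 0.74. Of the inducible proteolytic subunits, Psmb8 and Psmb9 were low in the cells. Psmb8 read 17.3, 37.5, 24.4 and 25.7 units with Dox and 136, 139, 153 and 156 without in MYC-2983 cells (-2.48 (SE 0.17, adjusted p = 1.25e-10)). In VM-3055 cells it was 0, 0, 0 and 0 with Dox and 7.05, 9.31, 8.53 and 12.9 without, called lower at adjusted p = 4.78e-08, and no fold is given against libraries at 0. In VIM-3039 cells it read 0, 0, 0 and 0.81 with Dox and 7.59, 2.23, 0 and 0.83 without (adjusted p = 0.0599). Psmb9 read 1.68, 2.72, 5.42 and 2.10 with Dox and 13.1, 21.1, 20.8 and 18.5 without in MYC-2983 cells (-2.35 (SE 0.28, adjusted p = 3.94e-07)), at most 8.36 units in VM-3055 cells and at most 4.15 in VIM-3039 cells.

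Psmb10, the third inducible subunit, was expressed in all 3 lines. It was at 632, 592, 564 and 649.9 units with Dox and 584, 625, 649 and 655 without in MYC-2983 cells (-0.04 (SE 0.047, adjusted p = 0.401)) and differed by -0.09 (SE 0.074, adjusted p = 0.261) in VM-3055 cells. In VIM-3039 cells it was 571, 550.4, 539 and 525 with Dox and 313, 324, 303 and 339 without, 0.77 (SE 0.054, adjusted p = 2.4e-11). This response differed from that of the MYC-2983 and VM-3055 cells by 0.82 and 0.87 in the interaction test (both called).

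Nfe2l1 encodes NRF1, the transcription factor that raises proteasome genes when degradation is blocked. It was lower with Dox in each line, with differences of -0.46, -0.68 and -0.84. Ddi2, the protease that activates NRF1, was higher, by 0.53, 0.64 and 0.59, and Ngly1, which removes sugars from NRF1, was lower (-0.39, -0.58 and -0.83). Nfe2l2 (NRF2) differed by -0.06 (SE 0.03, adjusted p = 0.0654), 0.20 (SE 0.045, adjusted p = 0.000641) and 0.32 (SE 0.035, adjusted p = 2.37e-08). In all, 1, 3 and 2 of the 5 genes of this pathway were higher and 3, 2 and 2 lower, against 31.5%, 26.1% and 31.1% of all genes higher and 44%, 47.7% and 44.2% lower.

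Levels per length of the longest coding transcript were uneven for subunits that are present once in each ring. In VM-3055 cells with Dox the highest were Psma7 with 4893 units per kb, Psmb4 with 3994 and Psmb1 with 3966. The lowest of the expressed ring and cap subunits were Psma3 with 477, Psmd11 with 551 and Psma5 with 755, and the chaperones Psmd10 and Psmd9 had 314 and 332. In VIM-3039 cells with Dox Psma7 was again highest, with 4351 units per kb, while in MYC-2983 cells with Dox Psmb4 had 5045 and Psmb6 4981. These values rest on the longest coding transcript of each gene in the mm9 annotation, which had 2846 bases for Psma3, 1239 for Psma5 and 914 for Psma7. The order of the genes therefore depends on the transcript taken.

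Across the 10 group means, the mean of the standardised log2 levels of the 31 expressed subunits was followed most closely by Gm5801 (Pearson r = 0.963, 11836 genes compared), annotated as a pseudogene. Cdc123 (0.915), Pmpca (0.902) and Yrdc (0.897) were also among the closest. Among the members, Psmb7 followed the mean of the others best (0.946) and Psmd9 next (0.892). Psmd10 (-0.13), Psma4 (-0.07) and Psmd8 (0.22) had the lowest r of the members that were expressed. The 6 cell groups and 4 tissue groups are separate sets of points, so these values describe the split between them as much as differences within them.

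Between the lines kept on Dox the members moved in both directions. VM-3055 against MYC-2983 cells gave 14 members higher and 13 lower of 36 (26.7% and 49.9% of all genes), with a median of 0.04 where all genes had -0.19. VIM-3039 against MYC-2983 cells gave 11 higher and 17 lower (26.4% and 49.7%), median -0.07 against -0.18. VIM-3039 against VM-3055 cells gave 8 higher and 16 lower (35.1% and 32.4%), median -0.05 against 0.02. The split depends on the scaling: with TMM it was 21 higher and 11 lower (34.1% and 40.9% of all genes), 18 and 12 (35.2% and 40.8%), and 8 and 16 (34.9% and 32.8%). These comparisons share libraries, so their values are given side by side.

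Several single subunits stood apart in 1 line. Psmc2, an ATPase, was 0.74 higher in VM-3055 than in MYC-2983 cells and differed by -0.81 between VIM-3039 and VM-3055 cells; it read 5042, 4952, 5272 and 5425 units in VM-3055, 3132, 2951, 3012 and 3310 in MYC-2983 and 2978, 2910, 2971 and 2946 in VIM-3039 cells with Dox. Only the VM-3055 libraries stood apart. Psmb6 read 3845, 3962, 4014 and 4080 units in MYC-2983, 2557, 2421, 2362 and 2489 in VM-3055 and 2507, 2494, 2297 and 2323 in VIM-3039 cells, so only MYC-2983 stood apart, with a difference of -0.69 (SE 0.031, adjusted p = 1.23e-10) for VM-3055 and -0.73 (SE 0.033, adjusted p = 8.1e-11) for VIM-3039. Psmd3 showed -0.69 and -0.71, and Psmc5 -0.56 and -0.61, for the same comparisons. Psmb4, a beta subunit needed for assembly, and Psmd4 were lowest in VIM-3039 cells, by -0.91 and -0.89 against MYC-2983 cells. Psmd10 and Psmd8 were highest there, by 0.81 and 0.62. Psmc3ip was the single member past 1, at -1.2 (SE 0.046, adjusted p = 1.07e-11) for VIM-3039 against MYC-2983 cells.

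Across the members, differences between lines were correlated with those of their chromosomal neighbours. For each of 35 members with a mean of at least 50 units, the median difference of its neighbours was set beside its own. Neighbours were the up to 20 nearest expressed genes, 10 on each side, without other members. Across members the Pearson r of these 2 values was 0.878 for VM-3055 against MYC-2983 cells with Dox, 0.744 for VIM-3039 against MYC-2983 and 0.606 for VIM-3039 against VM-3055. Without Dox it was 0.845, 0.729 and 0.660. Over all 11717 genes treated the same way it was 0.176, 0.187 and 0.165 with Dox. In the same order, 25, 25 and 20 of the 35 members had the sign of their neighbours with Dox, and 29, 24 and 26 without. The values are descriptions over genes that share the same libraries and, in places, neighbours, and they carry no test.

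Examples show the size of this. Psmc2 differed by 0.74 between VM-3055 and MYC-2983 cells and its neighbours by 0.75, Psmd3 by -0.69 and its neighbours by -0.84, and Psmc3ip by -0.89 and its neighbours by -0.81. Psmd4 differed by -0.89 between VIM-3039 and MYC-2983 cells and its neighbours by -0.98. Psmd10, by contrast, differed by 0.81 there and its neighbours by 0.18. For the response to Dox within a line the r was 0.095, 0.022 and 0.124 in the MYC-2983, VM-3055 and VIM-3039 lines, and for tumours against kidney 0.081, -0.27 and -0.39 in MYC, VM and VIM tumours.

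Psmb4 (chr3:94688015-94690883, mm9) and Psmd4 (chr3:94836616-94846536) lie near each other on chromosome 3 and were high in 1 tumour. Psmb4 read 3097, 8940 and 3199 units and Psmd4 1687, 6708 and 1883 in MYC tumours replicates 1 to 3, so replicate 2 was far above the other 2. Replicates 2 and 3 carry the same animal number. The stretch around them was set by the values of replicate 2 itself, as the run of genes whose running median stayed over 1 above the other tumours, so its level there is a description. Over this stretch, chr3:94217218-98114661 (mm9), the median of the 68 other expressed genes was 2.13 higher in replicate 2 than in replicate 3, and 67 of the 68 were higher. Over the 522 genes of the rest of the chromosome that median was 0.30, but this rest held raised genes too. Past the end of the stretch Wdr3, Man1a2 and Hipk1 differed by 2.40, 2.25 and 2.15, while Phgdh and Ptgfrn differed by 0.45 and 0.12. Before its start Ubap2l differed by 2.01 and Ilf2 by -0.18. The ends of the stretch come from the running median and do not mark how far the rise extends. Against the median of the other tumour libraries the stretch was 2.01 higher in replicate 2 and between -0.37 and 0.38 in the other 8 tumour libraries. Of 333 such neighbour medians (37 genes in 9 tumours) those of Psmb4 and Psmd4 in this library were the 2 past 1, and the largest of the rest was 0.712. The cells named after the same animal were 0.73 above VM-3055 cells over the stretch with Dox (0.20 over the rest of the chromosome) and 0.20 above without Dox (0.14). Against VIM-3039 cells they were 1.04 above with Dox (0.71 over the rest) and 0.78 without (0.72).

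**Figure D4:**
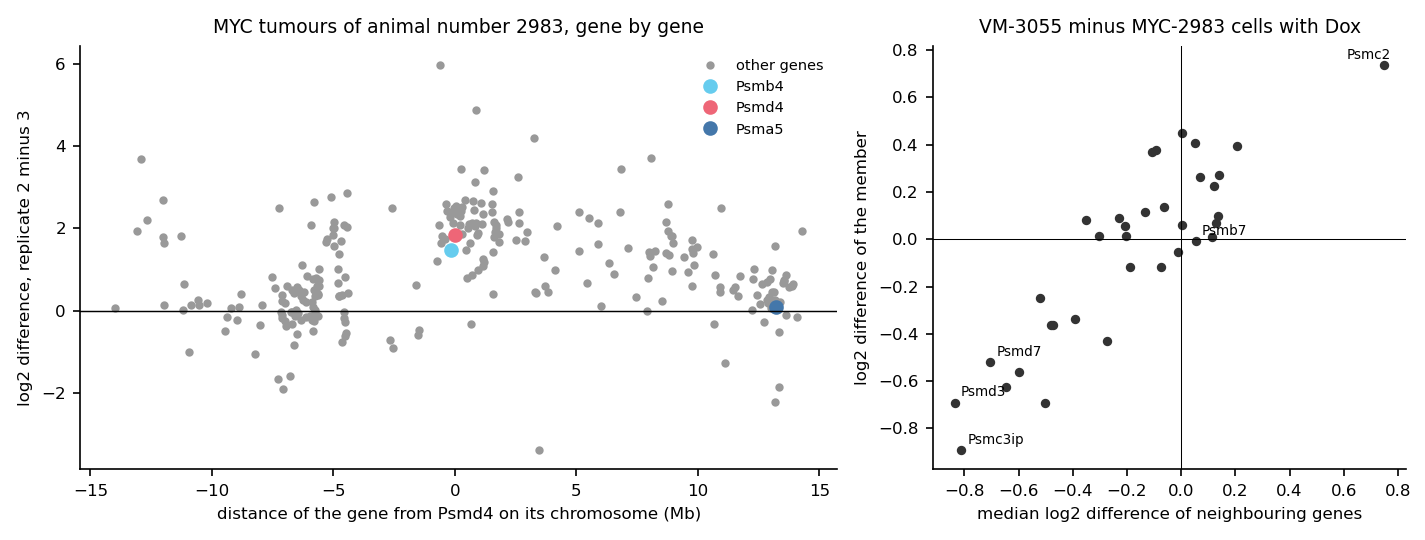
Left, log2 difference of genes of chromosome 3 around Psmd4 between replicates 2 and 3 of the MYC tumours (y axis) against its distance from Psmd4 in Mb (x axis), with Psmb4, Psmd4 and Psma5 in colour and other genes in grey. Right, log2 difference of each of 35 members between VM-3055 and MYC-2983 cells with Dox (y axis) against the median difference of its up to 20 nearest expressed genes (x axis). Psmb4 and Psmd4 lie among the raised genes on the left, and the points on the right rise together (r = 0.878).

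Few members were called between tumours and normal kidney. In MYC tumours 1 of 37 was called higher and 1 lower (22.8% and 18.4% of all genes), with a median of -0.17 where all genes had 0.12. In VM tumours 6 were higher and 1 lower (22.8% and 25.9%), median 0.23 against -0.03, and in VIM tumours 11 were higher and 0 lower (24.2% and 24.2%), median 0.41 against 0.00. The members called higher were below the background share in MYC and VM tumours and near it in VIM tumours. 1, 3 and 3 members passed 1 in the higher direction. The 3 comparisons share the 5 kidneys. In bulk tissue fewer cells of a type and less RNA per cell cannot be told apart, and here genotype, Dox and tumour against normal tissue change together.

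The alpha subunit Psma5 and the lid subunit Psmd8 had the largest differences among the expressed ring and cap subunits. Psma5 read 367, 273, 373, 275 and 186 units in the 5 kidneys, 447, 537 and 500 in MYC, 925, 728 and 751 in VM and 725, 475 and 1125 in VIM tumours. Every tumour was above every kidney, with differences of 0.75 (SE 0.32, adjusted p = 0.0808), 1.47 (SE 0.28, adjusted p = 0.000775) and 1.35 (SE 0.28, adjusted p = 0.00155). Psmd8 read 3074, 2747, 3035, 2498 and 2177 in kidney, 3627, 4605 and 4058 in MYC, 9330, 5441 and 6250 in VM and 8282, 5390 and 9535 in VIM tumours. Again the groups were separate, with differences of 0.56 (SE 0.26, adjusted p = 0.0989), 1.34 (SE 0.22, adjusted p = 0.000279) and 1.49 (SE 0.22, adjusted p = 0.00014). Psmd8 was thus higher in the VM and VIM tumours, which were kept on Dox, and lower with Dox in all 3 lines.

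By the mean over the 3 models, Psmc3ip was the largest and Psmd5 the smallest. Psmc3ip read 77.9, 36.5, 88.4, 48.9 and 46.8 units in kidney, 148, 117 and 148 in MYC, 134, 172 and 245 in VM and 102, 228 and 352 in VIM tumours (1.30 (SE 0.49, adjusted p = 0.0483), 1.64 (SE 0.43, adjusted p = 0.00601) and 1.82 (SE 0.43, adjusted p = 0.0033)). It was above kidney in every tumour library. Psmd5, a chaperone of the ATPase ring, read 1201, 1182, 1359, 1225 and 1026 in kidney, 866, 798 and 767 in MYC, 798, 976 and 984 in VM and 1107, 1038 and 982 in VIM tumours (-0.54 (SE 0.16, adjusted p = 0.0159), -0.38 (SE 0.14, adjusted p = 0.0349) and -0.20 (SE 0.14, adjusted p = 0.261)). With voom its VM and VIM differences turned to 0.049 and 0.10. The other calls in VM tumours were Psmb2 at 0.74, Psmd7 at 0.60 and Psmd12 at 0.38. In VIM tumours they were Psma2 at 0.58, Psma7 at 0.93, Psmb2 at 0.88, Psmb3 at 0.68, Psmc1 at 0.45, Psmd7 at 0.76, Psmd12 at 0.55 and Psmd14 at 0.90.

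**Figure D5:**
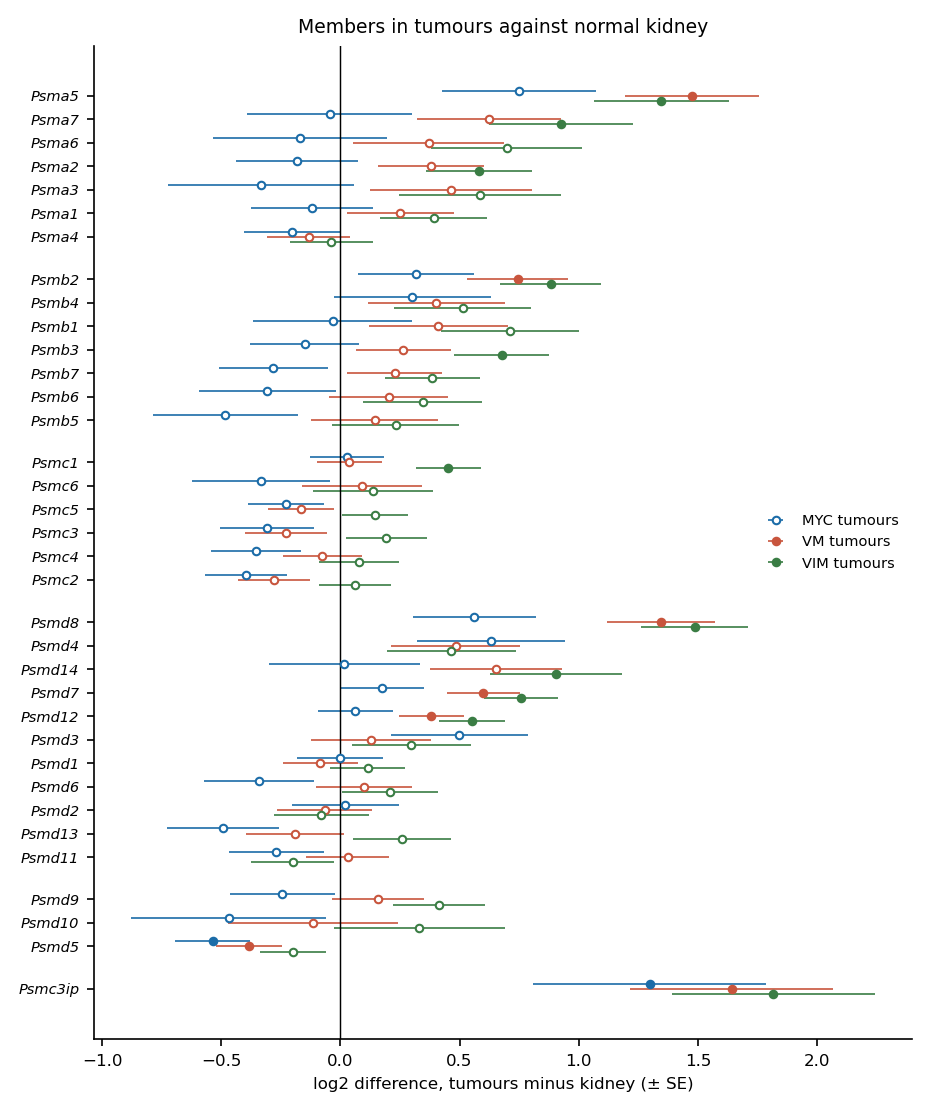
Difference of each member between tumours and normal kidney on the log2(value + 1) scale (x axis) for MYC, VM and VIM tumours (colours); filled points were called (limma, adjusted p under 0.05), open points were not, lines are ± SE, and Psma8 and Psmb11 are not drawn. The MYC tumour points centre near -0.17, and Psma5, Psmd8 and Psmc3ip are the called points past 1.

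By ring, 3 of 8 alpha, 2 of 8 beta, 1 of 6 ATPase and 4 of 11 cap genes were called higher in VIM tumours (24.2% of all genes). The ring medians were 0.64, 0.51, 0.14 and 0.30. In VM tumours 1, 1, 0 and 3 were called higher (22.8% of all genes), with medians of 0.42, 0.32, -0.12 and 0.13. Each ring holds few genes, so no difference between rings is read from these counts. The proteolytic subunits were not called in any model: Psmb5 gave -0.48, 0.14 and 0.23, Psmb6 -0.31, 0.20 and 0.35 and Psmb7 -0.28, 0.23 and 0.38 in MYC, VM and VIM tumours. Psmb5 read 1633, 1323 and 1677 units in MYC, 2589, 2418 and 2259 in VM and 2822, 1801 and 3338 in VIM tumours and 3031, 2003, 2849, 2273 and 1273 in kidney. Psmb6 read 2369, 1895 and 2353, 3872, 2480 and 3382 and 3301, 2431 and 5458 in these tumours and 3536, 2466, 3272, 2487 and 2316 in kidney, and Psmb7 2164, 2083 and 2617, 3381, 3075 and 3178 and 3606, 2610 and 4868 and 3189, 2696, 3206, 2687 and 2086. VIM tumours replicate 3 was the highest library of each. Psma8 reached 226 units in VM and 196 in VIM tumours and 1.87 in MYC tumours, with 3.26 to 21.4 in kidney, and was not called.

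The counts depended on the kidneys and on the model. Against the 2 kidneys with titles starting with B6, 4, 2 and 3 members were called in MYC, VM and VIM tumours, in either direction. The share of all genes called against these kidneys is not given here, so these counts are not read as a result about the members. Quantile normalization gave 3, 13 and 16 higher (22.8%, 26.8% and 25.2% of all genes) and 1, 0 and 0 lower. Voom on the estimated reads gave 10, 22 and 24, all higher, where it called 35.8%, 33.5% and 31.2% of all genes higher. Without VIM tumours replicate 2, 19 members were higher in VIM tumours (23.3% of all genes). In MYC tumours the count of 2 became 1 without MYC tumours replicate 3, VM tumours replicate 2 or 3, or normal kidney replicate 2 or 4, and 4, all lower, without normal kidney replicate 5. Tubule markers moved with every one of these comparisons: 6 of 6 proximal tubule and 6 of 6 distal nephron markers were called lower in each model, the latter summing to 73493 to 163228 units in kidney and 2.47 to 6583 in tumours. Endothelial markers were lower in 5, 5 and 6 of 6. Of 8 leukocyte markers 1 was higher in each model and 0, 2 and 1 lower, with sums of 1959 to 2951 units in kidney and 2060 to 16293 in tumours, and of 6 fibroblast markers 0, 2 and 1 were lower. Their part in the members' differences was not tested.

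Between tumour models no member was called: 0 of 37 for VM against MYC (0.73% of all genes higher and 1.67% lower), for VIM against MYC (2.28% and 2.44%) and for VIM against VM (1.95% and 0.941%). At an unadjusted p under 0.05 (limma) the counts were 2, 16 and 2, and voom called 0 in each. The share of all genes at that unadjusted p is not given here, and the percentages above are for adjusted calls. The members' medians were 0.39, 0.55 and 0.16 where all genes had -0.16, -0.10 and 0.07. Without VIM tumours replicate 2, 12 members were called higher in VIM than in MYC tumours, where 7.47% of all genes were.

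Of the other pathway genes, the core assembly chaperones were higher than in kidney in 2, 4 and 4 of 5 cases in MYC, VM and VIM tumours, against 22.8%, 22.8% and 24.2% of all genes. Psmg3 gave 0.97, 1.70 and 1.89 (all called) and Psmg4 0.55, 1.73 and 2.05 (called in VM and VIM). Uchl5 was higher in each, by 0.65, 0.94 and 1.40, and Psme4, an activator linked to histone degradation, was lower in each (-0.89, -1.05 and -0.89). Of the inducible subunits, Psmb10 was 259.5, 182, 248, 207 and 291 units in kidney and 742, 608 and 399.7 in MYC, 545, 179 and 522 in VM and 1090, 719 and 1511 in VIM tumours (1.38 (SE 0.41, adjusted p = 0.016), 0.66 (SE 0.36, adjusted p = 0.145) and 2.17 (SE 0.36, adjusted p = 0.000264)). Psmb8 gave -0.38 (SE 0.53, adjusted p = 0.602), -2.26 (SE 0.46, adjusted p = 0.00128) and -0.66 (SE 0.46, adjusted p = 0.259), and Psmb9 -1.05 (SE 0.83, adjusted p = 0.344), -3.35 (SE 0.73, adjusted p = 0.00191) and -2.41 (SE 0.73, adjusted p = 0.0149). Psmb9 overlaps Tap1 on the opposite strand. These genes are also expressed by leukocytes, whose marker sums were up to 16293 units in tumours, and that part was not tested. Ngly1 was lower in each model, with differences of -1.21, -0.99 and -1.06. Nfe2l1 gave -0.46, -0.37 and -0.84 and was called lower in VIM tumours.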

How the data were processed

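Messenger RNA of 38 mouse libraries was sequenced after stranded library preparation. The authors aligned reads with MapSplice to mm9, used Picard 1.64 and SAMtools, and estimated expression with RSEM over UCSC known genes; the strand setting of the counting is not given in the sources used here. The deposited values are a signal: estimated read counts that the authors scaled to an upper quartile of 1000 in each library, not per length. Depth, 8.22 to 36.6 M reads, was estimated from the steps of low values.

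Values were analysed as log2(value + 1) with limma 3.58.1 in R 4.3.3 (moderated test with a trend, two-sided, Benjamini-Hochberg over all genes tested, adjusted p under 0.05). Genes were tested if above 0 in at least 4 libraries of a cell comparison or in at least 2 of the 13 tumour and kidney values. Tumours and kidneys were fitted together, with libraries of 1 animal number averaged. Interactions used limma treat above a 1.2-fold difference. Scripts were tested on simulated data. Alternatives were pseudocounts of 0.1 and 10, a filter at a mean of 10 units or none, TMM scaling, quantile normalization, voom on estimated reads, other sets of libraries, a replicate block, and leaving out each library.

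The members and lists were chosen with earlier results of these data known. Values per library are given for the 3 proteolytic subunits, for the highest and lowest member of each ring or cap by mean Dox difference, and for the largest and smallest by mean tumour difference (mean of at least 50 units). Of the pathway lists, values are given for Psmb8, Psmb9, Psmb10, Psme1, Psme2, Pomp, Nfe2l1 and Nfe2l2 and for genes called past 1. The genes most like the members were taken from the 5 with the highest r; some genes that met these rules are not reported here. Other genes named were chosen after their values were seen. Positions are mm9, promoter sequences RefSeq GRCm38.p6.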

Additional observations from a re-analysis of the deposited data

Results flagged for a closer look

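Of 153 groups of 4 or 5 libraries over 22 measures, 11 held a library that stood far from the rest of its group, where chance gives about 1 in 20. In VIM-3039 cells without Dox, Psmb6 was 1846 units in replicate 2 against 2029 to 2059 in the others, Psma5 was 343 in replicate 1 against 382 to 388, and Psmd5 was 1732 in replicate 2 against 1619 to 1629. In VM-3055 cells with Dox, Psmb3 was 1414 in replicate 2 against 1456 to 1460 and Psmc3ip was 329 in replicate 1 against 268 to 274. In VIM-3039 cells with Dox, Psmc1 was 3356 in replicate 3 against 3453 to 3459 and Psme2 was 51.99 in replicate 2 against 59.0 to 60.4. Psmb8 was 209 units in normal kidney replicate 2 against 343 to 362 in the others. The remaining 3 were single libraries above 0 in groups otherwise at 0: Psmb8 at 0.81 in VIM-3039 cells with Dox replicate 4, and Psmb9 at 0.85 in VM-3055 cells with Dox replicate 3 and at 1.31 in VIM-3039 cells with Dox replicate 3, all under the value of 3 reads.

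The response to Dox differed between lines, by the test of the interaction, for no member and for some genes of the pathway lists. Psme1 differed by -0.51 (log2) between VM-3055 and MYC-2983 cells. Psmb10 differed by 0.82 between VIM-3039 and MYC-2983 cells and by 0.87 between VIM-3039 and VM-3055 cells. Nfe2l2 differed by 0.39 between VIM-3039 and MYC-2983 cells. Usp14 differed by 0.49 between VM-3055 and MYC-2983 cells and Ubqln2 by -0.43 between VIM-3039 and MYC-2983 cells. For Psmb8 the fit gave 2.15 between VIM-3039 and VM-3055 cells, but 7 of their 8 libraries with Dox were at 0, so the pseudocount sets this value and no difference is read from it.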

How the results depend on the processing

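The counts of members called with Dox and between lines, higher and lower together, stayed within 1.5 times in every alternative run. For Dox in the MYC-2983, VM-3055 and VIM-3039 lines they were 32 to 34, 25 to 33 and 30 to 34. They were 33 to 34, 24 to 30 and 30 to 32 when each library was left out. Leaving out a library gave 24 to 27, 26 to 30 and 23 to 24 between lines. The share of all genes called is not given here for these pooled counts. Pooled counts do not show direction, and TMM scaling moved the split between higher and lower in both comparisons with MYC-2983 cells, as given above. The interactions gave 0 in every fit with a minimum size, leave-one-out fits included, and 8, 12 and 12 with none, where the share of all genes is not given. Against kidney, MYC tumours gave 1 member with a pseudocount of 10, with no filter and with TMM, 4 with quantile normalization, with every library as its own sample and with the B6 kidneys, 5 with only both groups in the fit and 10 with voom. VM tumours gave 13 with quantile normalization, 22 with voom and 2 with the B6 kidneys, and VIM tumours 24 with voom and 3 with the B6 kidneys. The share of all genes called with the B6 kidneys is not given here. Leave-one-out counts were 1 to 4, 5 to 9 and 9 to 19 in MYC, VM and VIM tumours. VIM against MYC tumours gave 2 with every library as its own sample and 0 to 12 when 1 was left out; the other tumour pairs stayed at 0.

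Of 517 values of named genes, 460 kept direction and call, 22 lost and 21 gained the call, and 14 reversed. With Dox these were Psmc3 in MYC-2983 cells (0.029 with TMM, 0.049 with voom) and in VM-3055 cells (0.11 with TMM), and in VM-3055 cells Psmb6 (0.089 with TMM) and Psmb1 (0.19 with TMM, 0.021 with quantile normalization, 0.071 with voom). Against kidney they were Psmb6 (0.16) and Psmb7 (0.19) in MYC tumours and Psmd5 in VM (0.049) and VIM (0.10) tumours with voom, and with the B6 kidneys Psmb5 (-0.28) and Psmb6 (-0.092) in VM and Psmb5 (-0.19) in VIM tumours. The cause was not tested.

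Same-numbered libraries did not deviate together (mean r -0.18, 0.015 and 0.058 for VM-3055, VIM-3039 and between these lines). A low r cannot show that they were not paired, and the labels do not say. A replicate block gave 25 members for Dox in VM-3055, 31 in VIM-3039, 24 between these lines and 0 for their interaction. The shallowest library had 8.22 M reads, so values under about 5.65 units rest on at most 3 reads there.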
